A study of Mus musculus with 16 samples.

Results

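The genes described here are 9 that natural killer cells are known for and that activated cytotoxic CD8 T cells can switch on as well. They are Klrd1, Klrc1, Klrc2, Klrk1, Klre1, Klrg1, Klrb1c, Ncr1 and Nkg7. They were taken by symbol from every table, and all 9 were found among the 52916 symbols that the tables of both tissues share.

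All of these genes but Nkg7 encode surface receptors that set the threshold for killing. Klrd1 encodes CD94, which pairs with the product of Klrc1 (NKG2A) to form an inhibitory receptor or with that of Klrc2 (NKG2C) to form an activating one. Both pairs bind the nonclassical class I molecule Qa-1, encoded in the mouse by H2-T23. Klrk1 encodes NKG2D, an activating receptor for stress-induced ligands of the Raet1, H60 and Ulbp families, which signals through the adaptors Hcst (DAP10) and, in the mouse, Tyrobp (DAP12). Klre1 encodes a partner of the receptors Klri1 and Klri2, and Klrg1 an inhibitory receptor for cadherins that is found on terminal effector cells. Klrb1c encodes NK1.1 and Ncr1 encodes NKp46, both classical markers of natural killer cells. Nkg7 is not a receptor: its product sits in cytotoxic granules and takes part in their release.

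The tissue was the HM1 tumour, a mouse ovarian cancer model, from animals supplemented with mannose, a simple sugar, or from controls. Whole tumours gave 5 mannose and 5 control libraries. Cells labelled as CD8 T cells from such tumours gave 3 mannose and 3 control libraries. The labels give no strain, genotype, age, dose or sorting gate, name no animals for the replicates, and leave unstated whether any group received the anti-PD-1 antibody that the series title mentions. P-values therefore measure only the spread between these samples, which may be technical. Values are TPM, transcript abundance per length scaled to a common total in each library, so levels can be compared between genes.

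Several facts about the libraries bear on the values. TPM hold no read totals; the number of symbols at 1 TPM or more was 13538 to 14384 in sorted cells and 12345 to 13820 in tumours. The value columns of the 3 sorted control tables are headed as mannose samples; the sample labels were followed, and the direction of every difference in the sorted cells rests on them. The sorted cells carried T cell genes at high levels (Cd8a 408.8 ± 142 TPM with mannose and 582 ± 11.4 TPM in controls; SD, n = 3 each), but markers of other cells were present too. Over 35 T cell receptor beta V segments, mannose libraries 1 and 2 shared 93.6% of their segment use and control libraries 1 and 2 shared 96.0%, against 42.2% to 62.7% in the other pairs. Each like pair may therefore come from a single source, in which case p-values over 3 against 3 libraries are too small, and results with each pair averaged are given where they matter. In the tumours, mannose 3 and control 1 were, on average, least correlated with the other libraries and are left out together as an alternative.

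The killer-cell lectin-like receptor genes, 7 of the 9, lie on mouse chromosome 6, where such genes form a cluster, and Ncr1 and Nkg7 lie on chromosome 7. RefSeq promoter sequences of the mouse build GRCm38.p6 were at hand for 7 of the 9. They were searched as a description, and their part in the levels was not tested. The T-box site AGGTGTGA, its shorter form GGTGTG and the Runx site TGTGGT, which reads as ACCACA on the other strand, were searched on both strands of the 250 bases before each annotated start. T-box and Runx factors are transcription factors of killer lymphocytes. The lines give the last 150 bases before the start, 5′ to 3′ on the strand of the gene, with the matches in capitals.
Klrc1: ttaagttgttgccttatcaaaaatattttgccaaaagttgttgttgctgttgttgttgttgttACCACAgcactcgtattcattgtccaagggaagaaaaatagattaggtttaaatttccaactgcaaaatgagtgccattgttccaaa
Klrc2: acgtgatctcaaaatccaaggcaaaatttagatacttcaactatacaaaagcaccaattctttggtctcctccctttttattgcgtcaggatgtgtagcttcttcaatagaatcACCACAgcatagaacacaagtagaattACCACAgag
Klrk1: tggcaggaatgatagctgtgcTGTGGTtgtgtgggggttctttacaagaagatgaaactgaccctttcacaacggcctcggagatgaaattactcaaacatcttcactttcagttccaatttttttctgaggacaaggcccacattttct
Klrb1c: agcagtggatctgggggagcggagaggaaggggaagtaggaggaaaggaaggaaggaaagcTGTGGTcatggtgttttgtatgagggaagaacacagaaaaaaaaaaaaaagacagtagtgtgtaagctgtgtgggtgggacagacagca
Ncr1: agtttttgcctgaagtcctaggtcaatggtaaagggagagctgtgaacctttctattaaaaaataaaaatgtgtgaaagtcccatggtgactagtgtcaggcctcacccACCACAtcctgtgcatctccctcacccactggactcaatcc
Nkg7: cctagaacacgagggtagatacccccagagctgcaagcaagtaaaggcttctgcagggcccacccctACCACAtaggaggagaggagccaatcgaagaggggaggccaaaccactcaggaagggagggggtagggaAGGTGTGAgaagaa
The windows are chr6:129678974-129679123 for Klrc1, chr6:129660597-129660746 for the more upstream of the pair of starts of Klrc2, chr6:129623865-129624014 for Klrk1 and chr6:128788642-128788791 for Klrb1c, all on the minus strand. Those of Ncr1 (chr7:4337565-4337714) and Nkg7 (chr7:43436988-43437137) are on the plus strand.

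A Runx match stood in 9 of the 10 windows of these genes and in at least 1 window of each of the 7 genes. The paired windows of Klrc2, Klre1 and Ncr1 overlap, and the matches of Klrc2 and Ncr1 are counted in both windows. A match was held by 14.0% of all 32851 windows, and by 15.9% of all 27025 genes. The match lay 87 bases before the start in Klrc1, 129 in Klrk1, 89 in Klrb1c and 83 in Nkg7. Klrc2 had a pair of matches, 36 and 9 bases before the start shown, and Ncr1 had a second match beyond the printed stretch, 176 bases before its start. In Klre1 the match was 229 bases before 1 of its starts. The longer T-box site was found only in Nkg7, 14 bases before the start, and in 1.12% of all windows; the shorter form overlapped it there and stood in 16.3% of all windows. A match describes letters in a window and not a bound site.

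The first comparison asked how the receptors differed between CD8 T cells from mannose tumours and those from control tumours. Every one of the 9 genes had a lower mean with mannose. Of all 14280 genes tested, 5977 had a lower mean log2 value with mannose. None of the 8 genes with enough signal to be tested passed the threshold over all genes, and the difference came from mannose libraries 1 and 2, while mannose 3 stood near the controls for most of the genes. The receptors were lower in the same libraries as the T cell genes themselves, and for 5 of the 6 most abundant genes the level per Cd3 transcript overlapped between the groups. In bulk RNA, fewer cells of a type and less RNA per cell cannot be told apart.

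Klrd1, the shared CD94 chain, stood at 146, 188 and 346 TPM in mannose libraries 1, 2 and 3, against 358, 341 and 349 TPM in control libraries 1, 2 and 3. Mannose 1 and 2 lay below every control and mannose 3 lay within the control range. Its inhibitory partner Klrc1 had 289.6, 394 and 637 TPM with mannose and 684, 686 and 594 TPM in controls. The pattern was that of Klrd1, with mannose 3 inside the control range. The activating partner Klrc2 was far less abundant, at 25.8, 30.4 and 58.1 TPM with mannose and 51.5, 51.1 and 52.2 TPM in controls. Here mannose 3 was above every control.

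The log2 difference, mannose minus control on the log2(TPM + 1) scale, was -0.72 ± 0.29 (SE) for Klrd1 and -0.64 ± 0.26 for Klrc1, with adjusted p = 0.0931 and 0.0996 in limma. For Klrc2 it was -0.52 ± 0.28 with adjusted p = 0.189. Klrc1 and Klrc2 are close relatives: 49.6% of the 31-base words of Klrc1 transcripts also occur in Klrc2, with a longest shared stretch of 202 bases, so the split of reads between them is uncertain. The ratio of Klrc2 to Klrc1 rests on that split. It stayed within a narrow band in the sorted cells, from 0.0772 to 0.0911 with mannose and from 0.0745 to 0.0879 in controls. Klrd1 over the sum of both partners was 0.442 to 0.497 with mannose and 0.463 to 0.539 in controls. The CD94 chain and the sum of its partners thus kept similar proportions while their levels differed more than 2-fold between libraries.

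Klrk1, the NKG2D gene, had 106, 149 and 245 TPM with mannose, against 229.9, 226 and 208 TPM in controls. Mannose 1 and 2 were below every control and mannose 3 above every control, and the difference of -0.49 ± 0.27 had an adjusted p of 0.208. Klre1 had 32.9, 44.6 and 61.5 TPM with mannose and 50.1, 48.3 and 50.5 TPM in controls. Of the 8 genes tested it had the smallest difference, -0.14 ± 0.21 (adjusted p = 0.628). Its partner Klri2 averaged 15.1 ± 8.54 TPM with mannose and 23.6 ± 1.62 TPM in controls, and its partner Klri1 2.85 ± 0.526 TPM and 2.52 ± 0.71 TPM; neither passed (adjusted p = 0.136 and 0.634).

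Nkg7, the granule gene, was the most abundant of the 9, at 671, 834 and 1357 TPM with mannose and 1377, 1354 and 1412 TPM in controls. Mannose 3 was again inside the control range, and the difference was -0.60 ± 0.24 (adjusted p = 0.0916). Klrg1 behaved otherwise. It had 8.76, 9 and 3.55 TPM with mannose, against 10.4, 10.5 and 9.84 TPM in controls. All mannose libraries lay below all controls, but the lowest was mannose 3, the library that was at control level for most of the other genes; the difference was -0.56 ± 0.30 (adjusted p = 0.196).

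Of the classical natural killer markers, Ncr1 was near 0 and Klrb1c was low in the sorted cells. Klrb1c had 0.35, 1.64 and 0.97 TPM with mannose and 2.07, 2.06 and 3.10 TPM in controls. Ncr1 had 0, 0.20 and 0.24 TPM with mannose and 0.37, 0.52 and 0.52 TPM in controls, and was too low to be tested. In both, every mannose library was below every control; the difference of Klrb1c was -0.82 ± 0.28 (adjusted p = 0.0608). Klrb1c shares 8.28% of its 31-base words with Klrb1a and overlaps the gene model Gm44511 on the same strand, so part of its small value is uncertain.

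**Figure D1:**
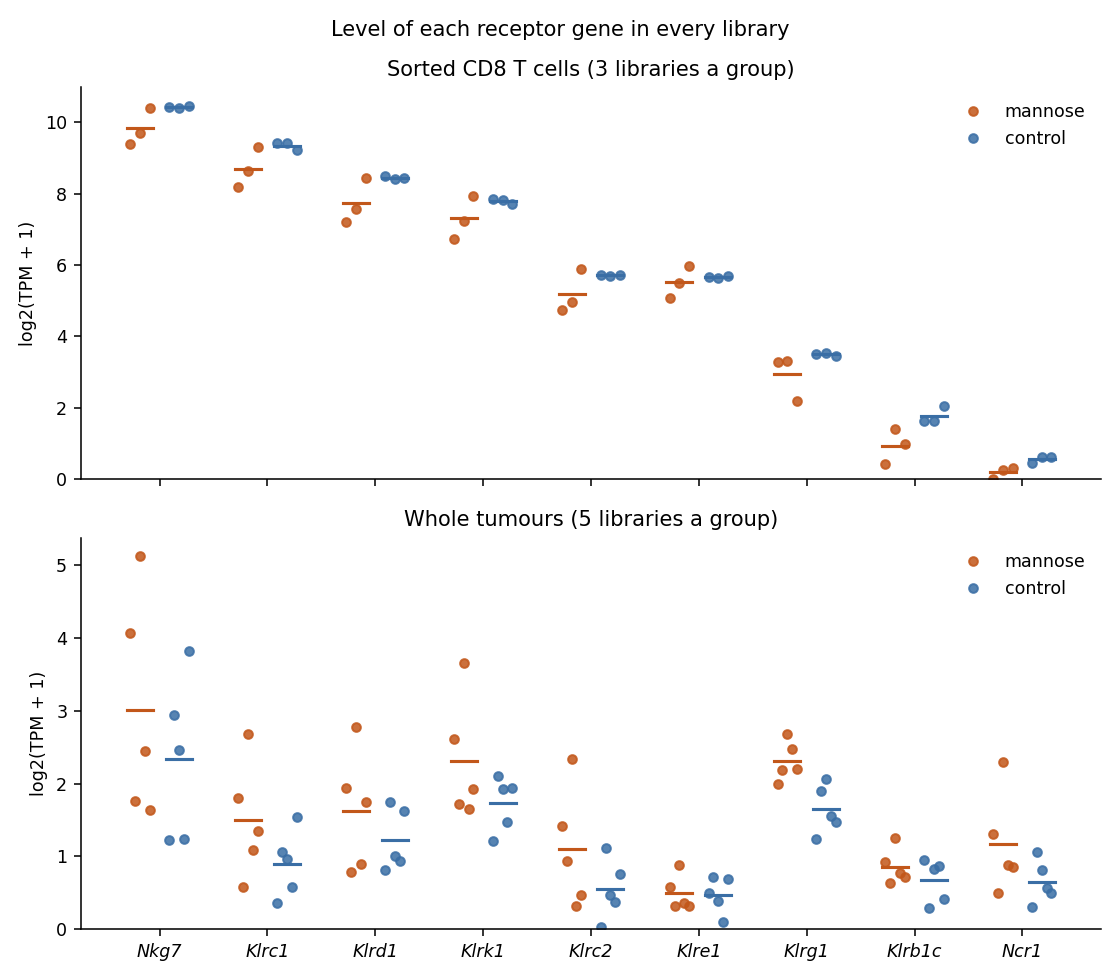
Level of the 9 genes as log2(TPM + 1) in each library of sorted CD8 T cells (top) and of whole tumours (bottom); each point is 1 library, in replicate order within a group, with the group mean of the log2 values as a line and mannose left of control. In the sorted cells mannose 1 and 2 lie below the controls for the 6 most abundant genes and mannose 3 lies close to or above them, while for Klrg1, Klrb1c and Ncr1 all 3 mannose libraries lie below the controls; in the tumours the groups overlap for every gene.

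Counted over the genes tested, 0 of 8 were lower at an adjusted p under 0.05, against 11.7% of all 14280 genes, and 4 of 8 were lower at an unadjusted p under 0.05, against 16.7%. Klrg1 and Klrb1c, 2 of the 8, had every mannose library below every control, against 18.1% of all genes. The median difference over the 8 was -0.58, beside 0.090 over all genes. These counts depend on mannose 3. Without it, 5 of the 8 were lower (Klrd1 -1.07, Klrc1 -0.95, Nkg7 -0.88, Klrc2 -0.86 and Klrk1 -0.81, with adjusted p between 0.00249 and 0.00922), against 17.0% of all genes. The same 5 were lower when limma's array weights gave unlike libraries less influence, against 24.6% of all genes. The 2 mannose libraries that remain without mannose 3 are the like pair, so that fit may hold a single mannose source, and with like pairs averaged 0 of the 8 were lower, against 3.88% of all genes.

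The levels of T cell genes moved with those of the receptors. The geometric mean of Cd3d, Cd3e and Cd3g was 279, 354 and 528 TPM in mannose libraries 1 to 3, and 573, 549 and 603 TPM in the controls. Of the 10 T cell markers 2 were lower with mannose by the same limma test, against 11.7% of all genes. Cd3e (-0.64 ± 0.23, adjusted p = 0.074) and Cd8a (-0.57 ± 0.23, adjusted p = 0.0925) were not among the 2. Markers of other cells moved too: the 10 macrophage markers summed to 1124 to 1413 TPM with mannose and 3630 to 4174 TPM in controls, with 10 of 10 lower, while the 8 carcinoma markers summed to 1608 to 2459 TPM with mannose and 236 to 530 TPM in controls. Of the 4 carcinoma markers tested 3 were higher with mannose (Krt8, Krt18 and Krt19), against 23.2% of all genes, and 1, Cdh1, was lower. Fibroblast markers (6 of 6) and endothelial markers (3 of 5) were higher too. Dendritic cell markers (4 of 4 tested) and neutrophil markers (4 of 5 tested) were lower. With like pairs averaged 0 fibroblast and 0 endothelial markers were higher, and 1 dendritic cell and 1 neutrophil marker were lower. The part of these other cells in the receptor values was not tested. Natural killer markers other than the 9 genes summed to 279 to 460 TPM and 777 to 971 TPM, mostly from Fcer1g, Gzma and Xcl1, which macrophages or T cells also use. Fcer1g alone averaged 108 TPM with mannose and 555 TPM in controls. Of the 9 of these markers tested 2 were lower and 0 higher. The difference was below 0 for 6 and above 0 for 3 (Itga2, Eomes and Xcl1). Of the Ly49 receptor genes among them Klra8 and Klra4 were at most 0.26 and 0.15 TPM in every sorted library. Klra3 had 3.76 to 10.0 TPM with mannose and 7.23 to 10.9 TPM in controls, and Klra7 3.96 to 9.47 TPM and 5.76 to 9.10 TPM.

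Set over the Cd3 geometric mean of the same library, Nkg7 was 2.36 to 2.57 with mannose and 2.34 to 2.47 in controls. Klrd1 was 0.521 to 0.654 with mannose and 0.578 to 0.624 in controls, and Klrc1 was 1.04 to 1.21 and 0.985 to 1.25. These ranges overlapped, as did those of Klrk1 (0.381 to 0.463 and 0.345 to 0.412) and Klrc2 (0.0861 to 0.110 and 0.0865 to 0.0932). The exception was Klre1, at 0.116 to 0.126 with mannose and 0.0837 to 0.0881 in controls, so every mannose library lay above every control. That was true of 56.2% of all genes on this ratio, and it does not set Klre1 apart from genes in general. Klrg1 per Cd3 was 0.0314, 0.0255 and 0.00672 in mannose libraries 1 to 3, and 0.0163 to 0.0191 in controls: mannose 1 and 2 were above the controls and mannose 3 below them.

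**Figure D2:**
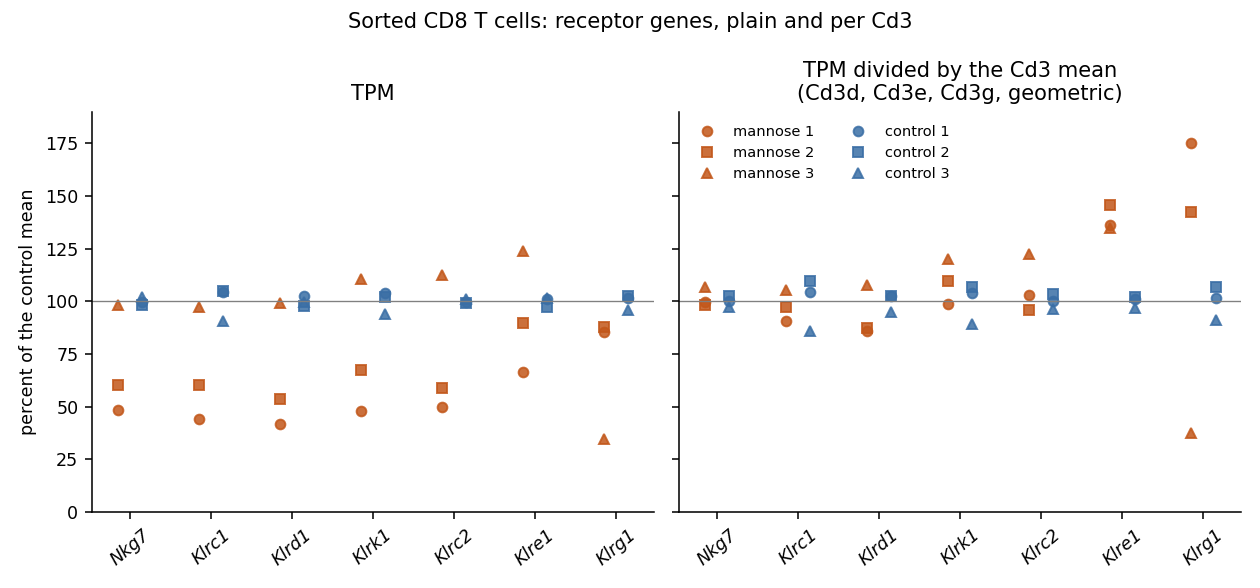
Values of 7 genes in each library of sorted CD8 T cells as a percent of the control mean (y axis), from TPM (left) and from TPM over the geometric mean of Cd3d, Cd3e and Cd3g in the same library (right); each point is 1 library, mannose left of control. Over Cd3 the groups overlap for Nkg7, Klrc1, Klrd1, Klrk1 and Klrc2, lie apart for Klre1, and spread widely with mannose for Klrg1.

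The same held in the fit with each library scaled to its Cd3 and Cd8 genes, which moved the median of all genes to 0.67. On that scale the differences were -0.022 ± 0.22 for Nkg7, -0.069 ± 0.21 for Klrc1, -0.14 ± 0.21 for Klrd1, 0.087 ± 0.21 for Klrk1, 0.060 ± 0.22 for Klrc2 and 0.43 ± 0.21 for Klre1 (adjusted p = 0.109). None of the 8 passed the test in either direction, while 2.48% of all genes were lower. This scale puts T cell genes at no difference by construction, and on it 5483 of all 14280 genes were higher and 354 lower.

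The second comparison asked the same of whole tumours, in which killer cells are a small part of the tissue. All 9 genes had a higher mean with mannose, and none passed the test. A higher mean log2 value with mannose was also found for 9876 of all 13282 genes tested, so this direction was common. The groups overlapped for every gene, and mannose 3 was the highest of the 10 tumours for all 9.

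Klrg1 had 2.98, 3.57, 5.39, 4.54 and 3.60 TPM in mannose tumours 1 to 5, against 1.37, 2.74, 3.18, 1.93 and 1.77 TPM in control tumours 1 to 5. Of the mannose tumours 4 lay above every control and mannose 1 below the highest control. The difference was 0.66 ± 0.19 on the log2(TPM + 1) scale, with an unadjusted p of 0.00523 and an adjusted p of 0.754. It was the only one of 5 tested genes with an unadjusted p under 0.05, which 5.53% of all 13282 genes reached in that direction. At the adjusted threshold 0 of 5 were higher, against 0% of all genes.

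Nkg7 had 15.7, 2.38, 33.9, 4.44 and 2.12 TPM in mannose tumours, against 1.34, 6.71, 4.51, 1.36 and 13.2 TPM in control tumours. Mannose 1 and 3 lay above every control and the other 3 within the control range; the difference was 0.67 (adjusted p = 0.819) and turned to -0.14 when mannose 3 and control 1 were left out together. Klrk1 had 5.14, 2.30, 11.6, 2.14 and 2.80 TPM with mannose and 1.31, 3.32, 2.81, 1.78 and 2.83 TPM in controls, a difference of 0.58 ± 0.36 that came to 0.12 without that pair of tumours. Again mannose 1 and 3 were the tumours above every control.

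Klrd1 averaged 2.52 ± 2.07 TPM with mannose and 1.43 ± 0.742 TPM in controls (SD, n = 5 each), and Klrc1 2.21 ± 1.93 TPM and 0.946 ± 0.63 TPM. Their differences were 0.40 and 0.60, with adjusted p = 0.798 and 0.754, and without mannose 3 and control 1 they came to 0.011 and 0.17. The other 4 genes reached 1 TPM in fewer than 5 tumours and were not tested; with no filter on low values none of them passed (Klrc2 0.55, Ncr1 0.52, Klrb1c 0.19 and Klre1 0.020, adjusted p = 0.811 to 0.975). Klrc2 averaged 1.46 ± 1.57 TPM with mannose and 0.514 ± 0.438 TPM in controls, and Ncr1 1.49 ± 1.41 TPM and 0.596 ± 0.334 TPM. Klrb1c averaged 0.836 ± 0.328 TPM with mannose and 0.62 ± 0.314 TPM in controls, and Klre1 0.428 ± 0.258 TPM and 0.408 ± 0.234 TPM. T cell markers summed to 22.3 to 119 TPM in mannose tumours and 12.1 to 56.5 TPM in control tumours, and their part in these values was not tested.

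**Figure D3:**
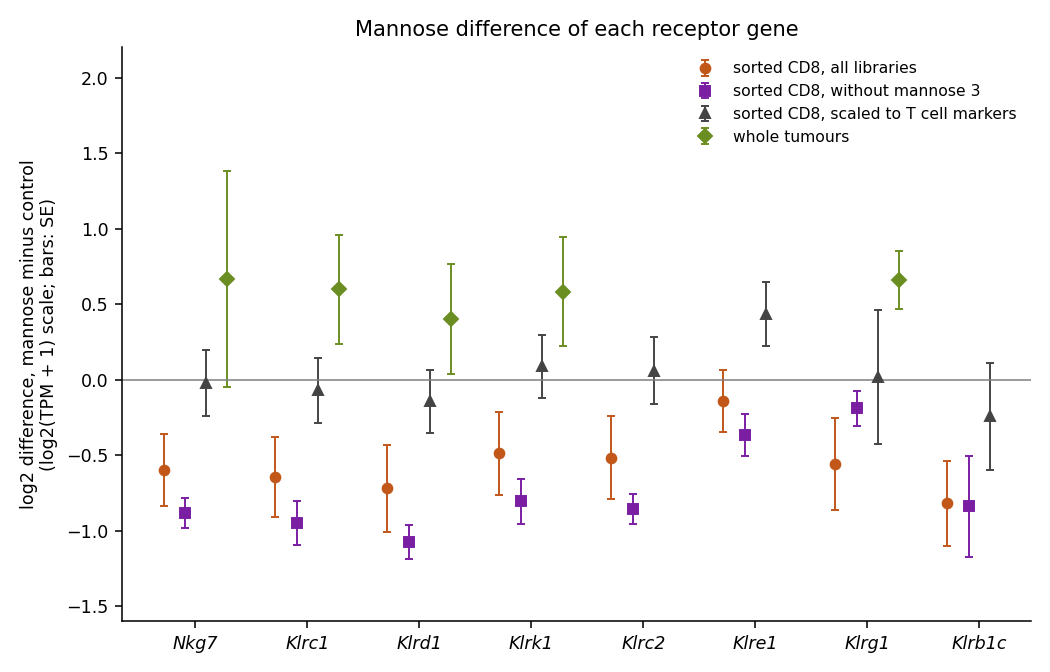
Log2 difference, mannose minus control on the log2(TPM + 1) scale, with its standard error from limma, for the 8 genes tested in sorted CD8 T cells (all 6 libraries, without mannose 3, and scaled to T cell markers) and the 5 tested in whole tumours. Unscaled points for the sorted cells lie below 0, and further below without mannose 3 for Nkg7, Klrc1, Klrd1, Klrk1, Klrc2 and Klre1. After scaling the points lie near 0 for all but Klre1, which lies above 0, and Klrb1c, which lies below it. Points for tumours lie above 0.

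The opposite signs raise the question of whether the mannose difference itself differed between sorted cells and tumours. A fit of all 16 libraries tested the sorted difference minus the tumour difference. It was negative for all 9 genes and passed for 2, Klrg1 (-1.22 ± 0.36, adjusted p = 0.0263) and Klrb1c (-1.01 ± 0.32, adjusted p = 0.0376), against 7.64% of all 15498 genes that passed in that direction. The difference was larger for Nkg7 (-1.26, adjusted p = 0.448) and Klrc1 (-1.24, adjusted p = 0.129), which varied more between tumours and did not pass. For Klrd1, Klrk1, Klrc2 and Ncr1 it lay between -1.12 and -0.88, and for Klre1 it was -0.16. With like pairs averaged Klrg1 had an adjusted p of 0.0486 and Klrb1c of 0.0533. The call of Klrg1 ended without sorted mannose 3 (adjusted p = 0.0506) and that of Klrb1c without sorted mannose 1 (0.129), without tumour mannose 1 or 3 (0.0578 and 0.0621) or without tumour control 2 or 5 (0.0612 and 0.0621). Both ended without any 1 of the sorted controls (0.0501 to 0.112). Klrb1c was at most 3.10 TPM in all 16 libraries and reached 1 TPM in 4 sorted libraries, all 3 controls among them, and 1 tumour. It thus entered this test, and that of the sorted cells, through the group in which it was highest, and with no filter on low values its adjusted p was 0.0728 and that of Klrg1 0.0573.

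The levels of the 9 genes spanned more than 3 orders of magnitude in the sorted cells and little more than 1 in the tumours. In sorted controls the order was Nkg7 (1381 ± 29.3 TPM), Klrc1 (655 ± 52.8), Klrd1 (349 ± 8.22), Klrk1 (221 ± 11.6), Klrc2 (51.6 ± 0.552), Klre1 (49.7 ± 1.16), Klrg1 (10.3 ± 0.365), Klrb1c (2.41 ± 0.598) and Ncr1 (0.47 ± 0.0866), with no overlap between the ranges of neighbours. With mannose Klre1 stood above Klrc2 in every library (46.3 ± 14.4 and 38.1 ± 17.4 TPM), and the ranges of Klrc1 and Klrd1, of Klrd1 and Klrk1, and of Klre1 and Klrc2 overlapped. By these values the inhibitory NKG2A gene was more abundant than the activating NKG2C gene in each sorted library, with the split of reads between them uncertain. In the tumours Nkg7, Klrk1, Klrg1 and Klrd1 led in both groups, but the ranges of all neighbours overlapped.

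Sorted cells are set beside tumours with no test, since the tables of the tissues list different numbers of entries. In controls, the sorted mean was 692-fold the tumour mean for Klrc1, 255-fold for Nkg7, 245-fold for Klrd1 and 122-fold for Klre1. Klrc2 (100.4-fold) and Klrk1 (91.9-fold) followed, while the T cell gene Cd3e was 181-fold and Cd8a 452-fold higher. Klrg1 was 4.67-fold and Klrb1c 3.89-fold higher. Ncr1 stood at 0.789 of its tumour mean, with overlapping ranges (0.37 to 0.52 TPM in sorted controls and 0.24 to 1.09 TPM in control tumours). With mannose, where sorted means were lower and tumour means higher, the same ratios were 199 for Klrc1, 108 for Klre1, 89.8 for Klrd1, 81.4 for Nkg7, 34.8 for Klrk1, 26.1 for Klrc2, 1.77 for Klrg1, 1.18 for Klrb1c and 0.0983 for Ncr1. In both groups Klrg1, Klrb1c and Ncr1 had the smallest ratios, far from those of the T cell genes.

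**Figure D4:**
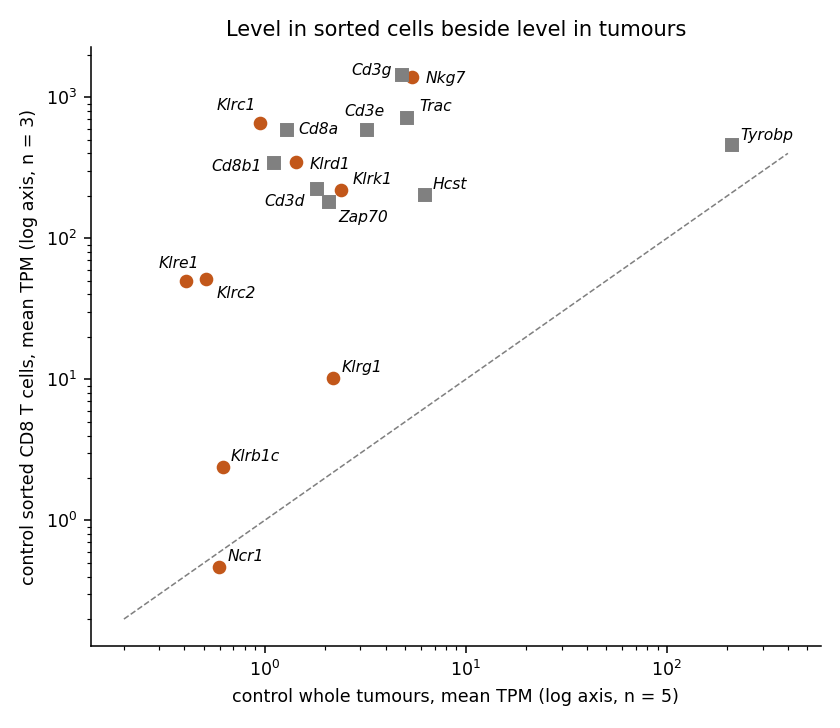
Mean TPM in control sorted CD8 T cells (y axis, n = 3) against mean TPM in control whole tumours (x axis, n = 5), both on log axes, with the 9 genes as circles and T cell and adaptor genes as squares; the dashed line marks equal values. Most of the 9 genes lie near the Cd3 and Cd8 genes far above the line, Klrg1 and Klrb1c lie closer to it, and Ncr1 lies just below it.

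Ratios within a library also differed between the tissues. Ncr1 per 100 TPM of Klrd1 was 0 to 0.107 in sorted mannose libraries and 0.103 to 0.152 in sorted controls, against 34.5 to 98.8 in mannose tumours and 19.7 to 75.2 in control tumours. The ratio of Klrc2 to Klrc1, under 0.1 in every sorted library, ranged from 0.221 to 1.86 in mannose tumours and from 0.069 to 1.08 in control tumours. Ncr1 relative to Klrd1 was thus above the sorted range in every tumour, and Klrc2 relative to Klrc1 in every tumour but control 1. Klrc1 and Klrc2 were at most 5.40 and 4.08 TPM in the tumours, and the split of reads between them is uncertain.

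**Figure D5:**
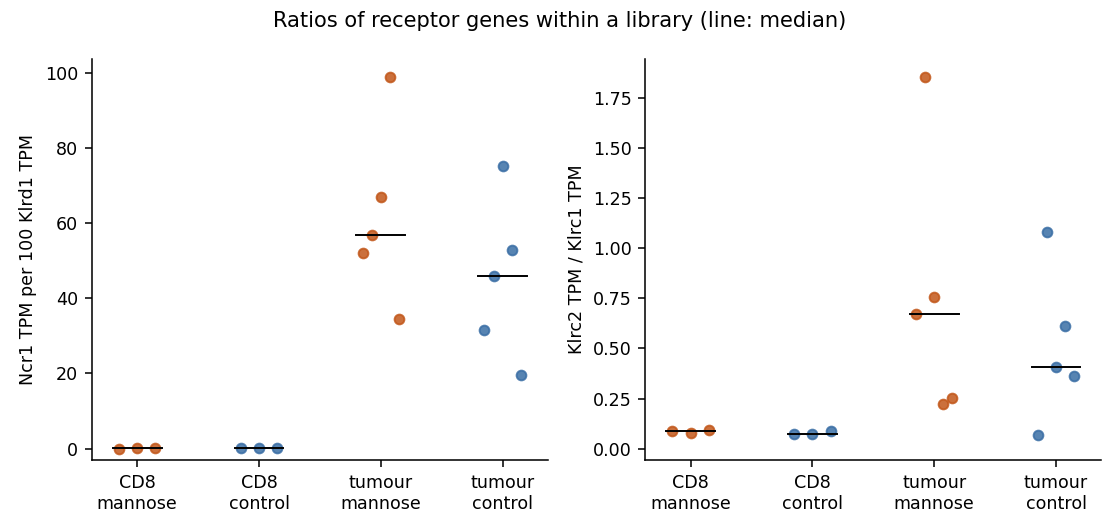
Ncr1 per 100 TPM of Klrd1 (left) and Klrc2 over Klrc1 (right) in each library, with the median as a line; mannose stands left of control within each tissue. Both ratios are near 0 in all 6 sorted CD8 libraries and higher in nearly all tumours, where mannose and control overlap.

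Over the 10 tumours, the genes whose log2(TPM + 1) followed the mean z-score of the 5 tested genes most closely, among 11917 candidates, were Tifa (Pearson r = 0.98, Spearman rho = 0.94), Cd200r4 (0.97 and 0.98), Ctss (0.96 and 0.85), Cd2 (0.96 and 0.73) and Clec7a (0.96 and 0.94). These are descriptions over libraries that share tissue makeup, and r without mannose 3 and control 1, the tumours farthest from the median, was 0.92, 0.88, 0.83, 0.87 and 0.83. Cd2 is a T and natural killer cell adhesion receptor, and Ctss and Clec7a are used by macrophages. Cd8a (r = 0.85) and Cd3e (r = 0.83) came lower in the order, and Ncr1, one of the 9 genes but not of the 5, had r = 0.94. Without mannose 3 and control 1 their r fell to 0.64 for Cd8a, 0.54 for Cd3e and 0.76 for Ncr1.

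The adaptors that carry the receptors' signals were lower in sorted cells with mannose. Of 12 adaptor and signalling genes 10 were lower and none higher, against 11.7% of all genes lower, with a median difference of -0.83 beside 0.090 over all genes; of all genes 1674 were lower and 3306 higher. Tyrobp, the DAP12 adaptor, had 103, 86.2 and 96.3 TPM with mannose and 446, 448 and 473 TPM in controls (-2.25 ± 0.086, adjusted p = 1.34e-04), and mannose 3 was as low as the other mannose libraries. Syk (-2.39), Fcer1g (-2.37) and Plcg2 (-1.50) were lower in the same way. All 4 are also used by macrophages, whose markers were lower in the same libraries; the part of macrophages in these values was not tested. Hcst, the DAP10 adaptor of NKG2D, had 85.7, 92.7 and 171 TPM with mannose and 212, 196 and 199 TPM in controls (-0.86 ± 0.25, adjusted p = 0.035). Zap70, a kinase of T cell receptor signalling, did not pass (-0.52 ± 0.25, adjusted p = 0.148). With like pairs averaged 4 of the 12 were lower, against 3.88% of all genes. Scaled to T cell markers 4 were lower, against 2.48% of all genes, and 1 was higher, with a median of -0.26.

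Of 19 further lectin-like receptors 11 could be tested and 5 were lower, against 11.7% of all genes, with a median of -0.73. The 5 were Klra2 (-1.32), Klrb1b (-1.33), Klra5 (-0.89), Klra17 (-0.77) and Klrc3 (-0.73, adjusted p = 0.0498). Klra5 and Klra17 were below 1 TPM in every mannose library and entered the test through the controls. Members of this family, Klra2 and Klra17 among them, are also used by myeloid cells, and all 10 macrophage markers were lower in the same libraries; their part in these values was not tested. Of 8 receptors of the immunoglobulin and SLAM families 3 were lower, Slamf6 (-0.96), Cd96 (-0.62) and Crtam (-0.57), with a median of -0.60, while Tigit missed the threshold (-0.63, adjusted p = 0.0500107). With like pairs averaged 1 of the 11 and 0 of the 8 were lower, against 3.88% of all genes. Scaled to T cell markers 0 of both lists were lower, against 2.48%.

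Of 13 ligand genes 9 were found and 6 could be tested in the sorted cells. Of the 6 tested 1 was higher and 3 were lower, against 23.2% and 11.7% of all genes. H2-T23, which encodes Qa-1, averaged 409 TPM with mannose and 432 TPM in controls and did not pass (-0.091 ± 0.12, adjusted p = 0.598). Among the NKG2D ligands Raet1e was higher, at 16.5, 14.5 and 8.66 TPM with mannose and 4.07, 4.26 and 2.20 TPM in controls (1.65 ± 0.29, adjusted p = 0.00615), and Raet1d was lower (-0.88, adjusted p = 0.00932). In the whole tumours Raet1e averaged 17.3 TPM with mannose and 17.5 TPM in controls. The carcinoma keratins Krt8, Krt18 and Krt19 were higher in the same sorted mannose libraries, as were 6 of 6 fibroblast markers and 3 of 5 endothelial markers. The part of these cells in the value of Raet1e was not tested. Cdh1, the E-cadherin that binds KLRG1, is also on the list of carcinoma markers, and it was lower. It had 9.13, 9.55 and 14.4 TPM with mannose and 28.0, 28.1 and 30.1 TPM in controls (-1.33, adjusted p = 0.00269). Clec2d, a ligand of the Klrb1b product rather than of NK1.1, was lower as well (-0.59, adjusted p = 0.00949). With like pairs averaged 0 of the 6 were higher and 1 lower, so most of these calls, that of Raet1e among them, ended. Of all 14459 genes in that fit 1091 were higher and 561 lower. Scaled to T cell markers 1 of the 6 was higher and 1 lower, beside 5483 higher and 354 lower of all 14280 genes.

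Among cytotoxic granule genes 5 of 9 tested were lower, against 11.7% of all genes, with a median of -0.67, including Srgn (-1.48), the granule proteoglycan, Gzmc (-0.97), Gzmb (-1.07) and Ctsw (-0.77). Prf1, which encodes perforin, averaged 633 TPM with mannose and 887 TPM in controls and did not pass (-0.59 ± 0.30, adjusted p = 0.168), nor did Gzmk (-0.060, adjusted p = 0.724). Of 8 tested transcription factors of killer cells 4 were lower, Runx3 (-1.08), Zeb2 (-0.76), Id2 (-0.75) and Nfil3 (-0.58), with a median of -0.66. Tbx21 (-0.85, adjusted p = 0.0883) and Eomes (0.33, adjusted p = 0.0734) did not pass. With like pairs averaged 2 of 9 granule genes and 1 of 8 factors were lower, against 3.88% of all genes, and scaled to T cell markers 1 and 0, against 2.48%.

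In the whole tumours no gene of these lists passed the test in either direction. The median differences were 0.34 for the adaptors, 0.54 over the 2 other lectin-like receptors tested, 0.34 for the immunoglobulin and SLAM receptors, 0.28 for the ligands, 0.65 for the granule genes and 0.33 for the transcription factors, beside 0.12 over all genes.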

How the data were processed

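Each library has its own deposited table, a single TPM value for every gene entry; column sums of 993815 to 997809 gave the unit. Tools listed in the submitters' processing notes are RSEM, HISAT and fastp, with GRCm39 as the build and no versions or roles. Entries sharing a symbol were summed, and groups follow the sample labels. Tests used limma 3.58.1 (R 4.3.3, trended variance) after log2(TPM + 1). A gene was tested if 1 TPM was reached in 5 tumour libraries, 3 sorted libraries or, for the fit of all 16, 3 libraries. Benjamini-Hochberg adjustment covered all genes tested; calls were made under 0.05. The fits were run on simulated data with independent libraries, which does not cover like pairs from a single source. A fold on this scale understates the change of low genes. Sequence overlap was computed from GENCODE M21 transcripts, and promoters come from RefSeq, both on GRCm38. Genes named are the 9, up to 4 per list with the smallest p in the sorted cells and the 5 most alike in tumours. Other list genes named (Klrc3, Hcst, Zap70, H2-T23, Klri1, Klri2, Prf1, Gzmk, Tbx21, Eomes, Cd3e, Cd8a, Krt8, Krt18, Krt19, Itga2 and Xcl1) were chosen after their values were seen. The genes and lists were chosen with earlier results of these data known. Figures were drawn with matplotlib 3.10.9.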

Additional observations from a re-analysis of the deposited data

Results flagged for a closer look

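In the limma fit of all 16 libraries, the mannose difference was lower in sorted CD8 T cells than in whole tumours for 2 of the 9 genes. That was so for 7.64% of all 15498 genes. For Klrg1 the sorted difference minus the tumour difference was -1.22, with a lower mean in sorted mannose cells than in sorted controls and a higher mean in mannose tumours than in control tumours. For Klrb1c it was -1.01, with the same pair of directions at levels of at most 3.10 TPM in every library. Klrb1c entered the test through the sorted controls, and neither gene passed with no filter on low values. Neither passed when any 1 of the sorted controls was left out. With like pairs averaged Klrg1 passed (adjusted p = 0.0486) and Klrb1c did not (0.0533).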

How the results depend on the processing

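Of the single-gene values under alternatives, 102 of 120 in the sorted cells, 94 of 95 in the tumours and 169 of 186 for the difference between them kept their direction and their side of the threshold. In the sorted cells the count of lower genes, 0 of 8, became 5 with array weights and 1 (Klrb1c) with quantile normalization or all 16 libraries in 1 fit. Of all genes 24.6%, 16.1% and 8.12% were lower in these fits. The count ranged from 0 to 5 when 1 library was left out, against 6.09% to 17% of all genes. Klrb1c entered these tests through the controls, in which it was highest. Directions turned in the sorted cells for Klrc2 (0.060), Klrk1 (0.087), Klre1 (0.43) and Klrg1 (0.015) when libraries were scaled to T cell markers, and for Klre1 without mannose 1 (0.076; range over libraries left out -0.37 to 0.076). In the tumours Nkg7 turned to -0.14 without mannose 3 and control 1. For the difference between the tissues, the 2 genes that passed became 1 on log2(TPM + 0.1), 1 with like pairs averaged (a choice made after seeing the data) and 0 with no filter on low values, where more genes are tested. Of all genes 6.25%, 3.7% and 3.49% passed in that direction in these fits. The count ranged from 0 to 2 when 1 library was left out, against 4.85% to 10.4% of all genes. Klre1 ranged from -0.39 to 0.056, turning without sorted mannose 1. Causes of the other changes were not tested. Replicate numbers are shared between the groups, but same-numbered libraries did not deviate together (correlations of 0.057 to 0.163 in sorted cells and -0.511 to 0.28 in tumours). With the number as a replicate block 0 of the 8 genes tested in sorted cells and 0 of the 5 tested in tumours were called. Of all 14280 genes in the sorted cells 3152 were higher and 1686 lower in that fit. In the tumours 0 of all 13282 were called. Depth is unknown, so counting error on the lowest values cannot be given.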
